A study of Mus musculus with 12 samples.

Results

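The transcription factors of the neuronal lineage Insm1, Myt1, Myt1l, St18, Bcl11a, Bcl11b, Tcf4, Neurod1 and Neurog2 were followed in mouse adherent neural stem (ANS) cells as these differentiated. The 9 genes were taken by symbol, and all 9 were found among the 22609 genes of the count tables and among the 34993 entries of the FPKM table. ANS cells are neural progenitors that grow attached to the dish, derived here from the brain of mouse embryos at E14.5 (embryonic day). This age was the same in every group. RNAseq of polyA RNA was performed on 3 libraries of cells in full proliferation in growth medium with N2, FGF2 and EGF (T0), and on 3 libraries at 2 days in medium D1, with B27 added and less N2, FGF and EGF, where proliferation was much reduced (T1). In addition, 4 libraries were from cells at 2 days in medium B, which holds N2, B27, FGF2 and BDNF without EGF, when proliferation had stopped and differentiation began (T2). A further 2 libraries were from cells at 10 days in medium B, labelled as overtly differentiated and GAD+ (T3). According to the paper's methods, cells entered medium B after medium D1, were dissociated again and replated on laminin, and received a different base medium. T2 and T3 therefore differ from T0 and T1 in more than the supplements. No group carried a genetic change or drug according to the labels, the replicates are described as biological, and how many embryos or cell lines they came from is not given in the sources used here.

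Neurog2 and Neurod1 are basic helix-loop-helix (bHLH) proneural and neuronal differentiation factors, which bind E-box DNA as dimers with broadly expressed E proteins such as Tcf4. Neurog2 is best known in progenitors of glutamatergic neurons of the cortex, where it acts upstream of Neurod genes, and Insm1 is a zinc finger repressor of newborn neurons and of endocrine cells. Myt1, Myt1l and St18 form one family of zinc finger factors that promote neuronal differentiation and repress non-neuronal or progenitor genes. Bcl11a (Ctip1) and Bcl11b (Ctip2) are zinc finger repressors used by projection neurons, and Bcl11b is also abundant in GABAergic neurons of the striatum.

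On the mouse assembly NCBIM37 (mm9) with the GENCODE annotation, 3 of the genes lie on chromosome 2: Insm1, at chr2:146047657-146050752 on the plus strand, has 1 exon. Myt1 lies at chr2:181498037-181562502 on the plus strand and Neurod1 at chr2:79292678-79296908 on the minus strand. Neurog2, with 2 exons, lies at chr3:127336054-127338549, Myt1l at chr12:30213249-30608074, St18 at chr1:6477312-6851021, and Bcl11a at chr11:23978056-24074123, all on the plus strand. Bcl11b lies on the minus strand at chr12:109148613-109241812. The libraries do not mark strand, so reads of overlapping genes cannot be separated by it. The exons of Neurod1 share 201 bases with Cerkl on the same strand and 154 bases with the long noncoding RNA Gm17325 on the other strand. Cerkl itself had at most 2 counts in any library. Exons of Bcl11a share 316 bases with the opposite-strand transcript 4930538E20Rik.

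The sequences upstream of 3 genes are shown since they gave the extremes of the readout: Neurog2 changed most, Myt1 was abundant, and its paralog Myt1l was hardly counted. Each run is the 250 bases before a RefSeq transcript start (taken from the GRCm38.p6 table and matched to a single place on NCBIM37), holds no annotated exon, and is written 5′ to 3′ on the strand of the gene, here the plus strand. Capitals mark the E-box CANNTG, the motif class of the bHLH dimers. The motif reads the same class on both strands.
Neurog2, chr3:127335804-127336053: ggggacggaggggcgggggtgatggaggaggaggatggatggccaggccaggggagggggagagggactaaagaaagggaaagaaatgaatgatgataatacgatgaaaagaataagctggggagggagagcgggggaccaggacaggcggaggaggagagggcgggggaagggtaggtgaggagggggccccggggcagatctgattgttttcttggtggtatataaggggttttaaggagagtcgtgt
Myt1, chr2:181497787-181498036: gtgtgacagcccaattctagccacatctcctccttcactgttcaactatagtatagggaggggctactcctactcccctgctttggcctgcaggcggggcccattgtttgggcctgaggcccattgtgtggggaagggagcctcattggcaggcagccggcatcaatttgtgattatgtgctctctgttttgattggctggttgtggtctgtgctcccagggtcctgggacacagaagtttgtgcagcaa
Myt1l, chr12:30212999-30213248: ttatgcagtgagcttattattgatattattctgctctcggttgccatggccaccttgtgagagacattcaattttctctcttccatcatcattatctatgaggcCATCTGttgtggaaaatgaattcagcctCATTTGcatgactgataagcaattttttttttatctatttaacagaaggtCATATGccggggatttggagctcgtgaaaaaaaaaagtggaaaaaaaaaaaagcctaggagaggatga
The Neurog2 and Myt1 windows held 0 E-boxes, and the Myt1l window held 3, starting 146, 118 and 68 bases before the transcript start. An E-box occurred in 66.2% of 32851 windows of the same length, so its presence is common. The Myt1 family motif AAAGTTT, searched on both strands, occurred in 0 of these 3 windows and in 4.2% of all windows. The windows shown are the first of 3 start windows that RefSeq gives for Myt1 and of 5 for Myt1l, and the motif counts depended on the start chosen: the exon-free windows of Myt1 held 0 to 2 E-boxes, 1 of them with AAAGTTT, and the 4 exon-free windows of Myt1l held 0 to 3 E-boxes and none with AAAGTTT. RefSeq entries were used for Bcl11a, Bcl11b, Myt1, Myt1l, Neurod1 and Neurog2, and not for Insm1, St18 and Tcf4.

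The libraries held 8910724 to 16631614 counts on genes (median 12601169). T0 replicate 3 stood apart from the other T0 libraries: over 12291 genes its median absolute log2 difference from them was 0.432 and 0.426, against 0.0834 between the other pair and 0.117 to 0.27 between replicates at T1, T2 and T3. The results of the factors tested against T0 are therefore also given without that library, as are those of some of the genes named from the lists. Where no such result is given for a named gene, its call is from all libraries. Marker genes moved along the course, with the summed level of 14 neuron markers at 910 to 981 CPM (counts scaled to the library size by edgeR's TMM factors) in the T0 libraries, 2080 to 2633 at T1, 2068 to 2625 at T2 and 1726 to 2791 at T3. Most of this sum was Mtap2, and the other 13 markers together were at 30.1 to 60.1 CPM at T0, 411 to 465 at T1, 502 to 640 at T2 and 417 to 846 at T3. The 8 progenitor markers together were at 7081, 6573 and 9788 CPM at T0, the highest in T0 replicate 3, and at 5246 to 7215 CPM in all later libraries. Without T0 replicate 3 the T0 sums overlapped with those at T1, at 5850 to 7215 CPM. Gad1, for the enzyme that makes GABA, was at 36.3 CPM on average at T3, whereas the other GABA-synthesizing gene Gad2 and the neuronal gene Stmn2 had at most 1 count in any library. In bulk RNA, fewer cells of a type and less RNA per cell cannot be told apart, and this holds for every difference given here.

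Of the 9 genes, 6 passed the filter on low counts in every comparison, namely Insm1, Myt1, Bcl11b, Tcf4, Neurod1 and Neurog2. The other three, Myt1l, St18 and Bcl11a, never exceeded 5 counts in a library and were not tested. Against T0, Neurog2 passed the filter only through the later libraries, where it is high. Calls are from the quasi-likelihood test of edgeR with a Benjamini-Hochberg adjusted p below 0.05 over all genes tested. At T1, Neurog2, Bcl11b and Myt1 rose, 3 of the 6 tested, where 15.1% of 12364 genes were called higher than at T0 and 16.8% lower. At T2, Insm1 was also called and 4 of 6 rose, against 21.4% of 12607 genes called higher and 21.8% called lower. At T3, with 2 libraries, Bcl11b alone was called, against 3.31% of 12721 genes called higher and 1.41% lower, and 5 of the 6 were higher at an unadjusted p below 0.05. None of the 6 was called lower than at T0 in these tests, nor at an unadjusted p below 0.05, nor by DESeq2 or limma. Without T0 replicate 3, the genes called were 4 at T1, 4 at T2 and 5 at T3, all higher, where 25.2%, 26.7% and 9.94% of all genes tested were called higher.

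**Figure D1:**
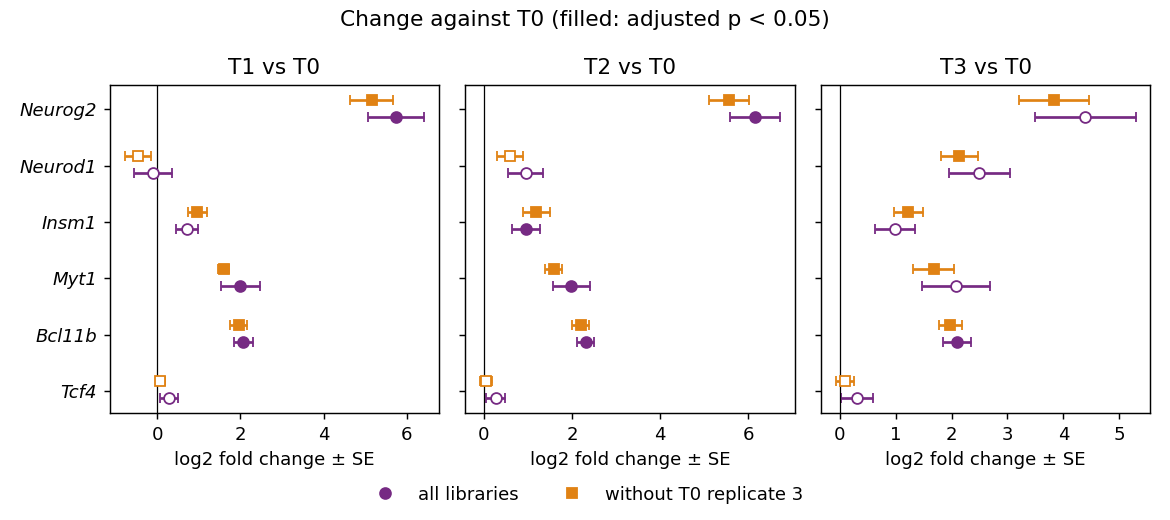
Log2 fold change against T0 (x axis, ± SE) of the 6 tested factors at T1, T2 and T3, from edgeR on all libraries (circles) and without T0 replicate 3 (squares), with filled symbols for an adjusted p below 0.05. At T3 only Bcl11b is filled with all libraries, and every gene but Tcf4 is filled without T0 replicate 3.

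Neurog2 showed the largest change of the 6 tested factors. Its counts at T0 were 6, 4 and 0, or 0.45, 0.279 and 0 CPM. At T1 they were 198, 204 and 126, or 17.1, 15.2 and 7.68 CPM, and at T2 they were 189, 170, 268 and 194, or 18.1, 15.7, 24.4 and 11.9 CPM. The 2 libraries at T3 had 87 and 28 counts, or 7.29 and 3.01 CPM. All later libraries lay above all T0 libraries, and both T3 libraries lay below every T1 and T2 library. The log2 fold change against T0 was 5.74 ± 0.68 (SE) at T1 (edgeR, adjusted p = 0.0016) and 6.15 ± 0.57 at T2 (adjusted p = 0.00013). At T3 it was 4.39 ± 0.90, with an adjusted p of 0.053. With T0 replicate 3 left out, the library at 0, these values were 5.15 ± 0.52, 5.57 ± 0.45 and 3.83 ± 0.62, all called, with an adjusted p of 0.022 at T3. The T0 level rests on 10 reads in all, so the size of the fold is imprecise. Against T0, Neurog2 passed the filter on low counts only through the later libraries, where it is high. With all genes kept, it was called at T1, T2 and T3 (edgeR, adjusted p = 0.00063, 2.4e-05 and 0.019).

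Neurod1, which acts after the proneural factors in differentiating neurons, was late. It had 19, 16 and 6 counts at T0 (1.43, 1.12 and 0.423 CPM), and at T1 it had 11, 12 and 15 counts (0.948, 0.897 and 0.915 CPM), within the range of T0. At T2 it had 24, 20, 16 and 32 counts (2.29, 1.85, 1.46 and 1.97 CPM). At T3 it had 56 and 60 counts (4.69 and 6.46 CPM), above every other library. Between T2 and T3 the rise was 1.55 ± 0.28 on the log2 scale (edgeR, adjusted p = 0.049), where 0.5% of 12599 genes were called higher and 0.691% lower. This call stood just inside the threshold, and 10 of 14 alternative settings lost it, with an adjusted p between 0.0024 and 0.28. Neurod1 was lost, for instance, without any 1 of the T2 libraries and without T3 replicate 4. Against T0, the log2 fold change was -0.10 ± 0.46 at T1 (adjusted p = 0.88), 0.95 ± 0.40 at T2 (adjusted p = 0.086) and 2.50 ± 0.54 at T3 (adjusted p = 0.058). Without T0 replicate 3, in which Neurod1 was lowest, it was 2.14 ± 0.33 at T3 and was called (adjusted p = 0.02).

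Neurog2 and Neurod1 thus had different time courses in these libraries, with Neurog2 highest at T1 and T2 and Neurod1 highest at T3. Neurog2 was lower at T3 than at T2 by a log2 fold change of -1.74 ± 0.39, which edgeR did not call (adjusted p = 0.07). It was called in 3 of 14 alternatives, by DESeq2 (adjusted p = 0.0002), by edgeR with no filter (0.0037) and without T3 replicate 1 (0.012), where the 1 T3 library left is assumed to vary like the other groups. Over the 14 alternatives the adjusted p ran from 0.0002 to 0.32. A difference between the 2 genes in their change from T2 to T3 was not tested. Between T1 and T2, no factor was called by edgeR, DESeq2 or limma, where 0.573% of 12382 genes were called higher and 0.0565% lower. Neurod1, at 1.04 ± 0.26 (adjusted p = 0.13), was the 1 factor with an unadjusted p below 0.05 there, and its T2 libraries all lay above its T1 libraries.

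**Figure D2:**
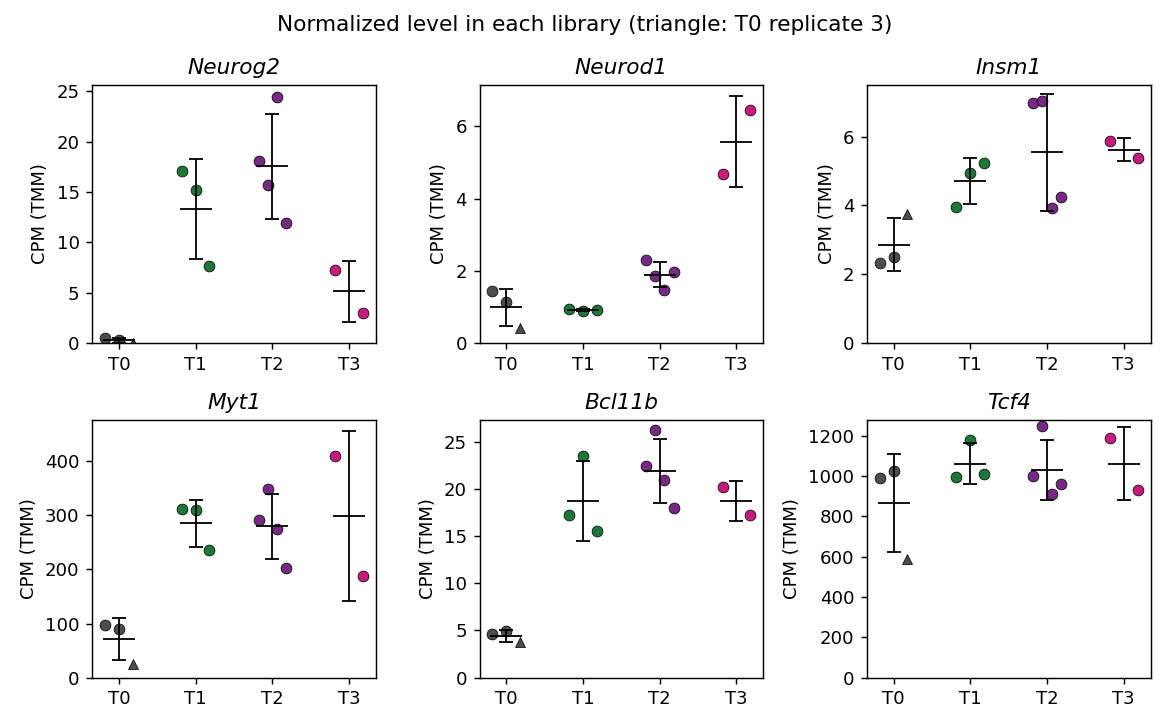
Level in CPM (y axis, TMM normalized) of the 6 tested factors in each library at T0, T1, T2 and T3, with the mean and SD as bars and T0 replicate 3 as a triangle. Neurog2 rises from at most 0.45 CPM at T0 to 7.68 CPM or more at T1 and T2, Neurod1 reaches 4.69 and 6.46 CPM at T3, and Tcf4 overlaps between all time points.

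Insm1 rose moderately. Its counts were 31, 36 and 53 at T0 and 46, 66 and 86 at T1, which correspond to 2.33, 2.51 and 3.74 CPM and to 3.96, 4.93 and 5.24 CPM. At T2 it had 6.98, 7.04, 3.91 and 4.24 CPM, and at T3 5.86 and 5.38 CPM. All later libraries lay above the 3 T0 libraries, although the lowest, at T2 replicate 3, exceeded T0 replicate 3 by little. The T2 libraries formed a higher pair, replicates 1 and 2, and a lower pair, replicates 3 and 4. The log2 fold change was 0.72 ± 0.27 at T1 (edgeR, adjusted p = 0.085), 0.96 ± 0.31 at T2 (adjusted p = 0.037) and 0.99 ± 0.35 at T3 (adjusted p = 0.15). In contrast to the other members, Insm1 was higher in T0 replicate 3 than in the other T0 libraries, and without that library the values were 0.97 ± 0.23, 1.19 ± 0.31 and 1.23 ± 0.26, all called (adjusted p = 0.0072, 0.0095 and 0.037). The call at T2 was lost without T0 replicate 1 or 2 and without T2 replicate 1 or 2.

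Myt1, a zinc finger factor induced by proneural genes in neuronal precursors, was present in proliferating cells and rose with differentiation. At T0 it had 1296, 1295 and 369 counts (97.2, 90.4 and 26 CPM), so that T0 replicate 3 was far below the others. At T1 it had 311, 310 and 235 CPM, and at T2 292, 348, 275 and 202 CPM. The T3 libraries differed, with 4880 counts in replicate 1 and 1735 in replicate 4 (409 and 187 CPM). Every later library lay above the T0 libraries, and the T1, T2 and T3 libraries overlapped. The log2 fold change was 2.00 ± 0.46 at T1 (edgeR, adjusted p = 0.018), 1.99 ± 0.42 at T2 (adjusted p = 0.0062) and 2.08 ± 0.60 at T3 (adjusted p = 0.1). Without T0 replicate 3 it was 1.60 ± 0.13, 1.59 ± 0.19 and 1.68 ± 0.37, called at all 3 time points, with an adjusted p of 0.04 at T3. The call at T1 was lost without T1 replicate 1 or 2.

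The paralogs of Myt1 were barely counted. Myt1l, a factor of postmitotic neurons that represses non-neuronal genes, was counted 3, 2 and 0 times at T0 and no more than 1 time in each later library, 11 times in all 12 libraries. No fold is given for it, since all groups lie at or under 3 counts per library. St18 (Myt3) had 0 counts in all 3 T0 libraries, 0, 5 and 0 at T1, 3, 3, 3 and 2 at T2, and 5 and 3 at T3. The 0 of T0 allows up to 0.0717 CPM over the group (3 counts, counting error only). The pooled level of St18 was 1.69 times that limit at T1, where the reads came from 1 of 3 libraries. It was 3.17 times the limit at T2, from 11 reads, and 5.27 times at T3, from 8 reads. The counting error of these reads is not included, so these ratios are not lower bounds of the fold. St18 failed the filter, and when all genes were kept edgeR called it at T2 (adjusted p = 0.019) and not at T1 (0.28) or T3 (0.12). DESeq2 also called it at T2 (adjusted p = 0.029).

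Bcl11b had the most uniform change. Its counts were 62, 71 and 53 at T0, or 4.65, 4.95 and 3.74 CPM. At T1 it had 17.2, 23.5 and 15.5 CPM, at T2 22.4, 26.2, 20.9 and 18 CPM, and at T3 20.2 and 17.2 CPM. The lowest later library, at 15.5 CPM, lay far above the highest T0 library, at 4.95 CPM, and the later time points overlapped. The log2 fold change was 2.07 ± 0.23 at T1 (edgeR, adjusted p = 0.0012), 2.31 ± 0.19 at T2 (adjusted p = 0.0001) and 2.09 ± 0.25 at T3 (adjusted p = 0.02). Without T0 replicate 3 it was 1.96 ± 0.21, 2.20 ± 0.19 and 1.98 ± 0.20, also called. At T3 the call needed both T3 libraries and both T0 replicates 1 and 2, and was lost without any 1 of these, with the log2 fold change between 1.98 and 2.18 over the libraries left out. Its paralog Bcl11a had 2 counts in T2 replicate 4 and 0 in the 11 other libraries. Over all 12 libraries this gives a pooled 0.0131 CPM, under the 0.0196 CPM that 3 counts would give, so that Bcl11a was not detectable at this depth.

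Tcf4, the E protein partner of the proneural factors, had 8325 to 16537 counts per library and lies on the plus strand at chr18:69503800-69847621. It had 988, 1023 and 587 CPM at T0 and 997, 1177 and 1008 CPM at T1. At T2 it had 1002, 1246, 912 and 960 CPM, and at T3 1189 and 932 CPM. The groups overlapped at every time point, and T0 replicate 3 was the lowest library. The log2 fold change was 0.29 ± 0.22 at T1 (edgeR, adjusted p = 0.35), 0.27 ± 0.21 at T2 (adjusted p = 0.33) and 0.31 ± 0.29 at T3 (adjusted p = 0.54), and it was 0.08 ± 0.10, 0.05 ± 0.13 and 0.09 ± 0.16 without T0 replicate 3. On the FPKM values the sign of the difference turned at T2 (-0.09 on the log2 scale) and at T3 (-0.13), neither called.

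The FPKM values, which are scaled to length, allowed levels to be compared between the genes. Tcf4 ranged from 103 to 187 FPKM over the 12 libraries and was above 98% of the 24235 entries with a mean FPKM above 0. Myt1 followed, with a mean of 18.2 ± 7.59 FPKM (SD, n = 3) at T0, 62.9 ± 11.7 (n = 3) at T1, 54.4 ± 12.9 (n = 4) at T2 and 64.4 ± 51 (n = 2) at T3. At every time point Tcf4 and Myt1 lay above all other members in every library of the group. The T3 libraries differed most in Myt1, with 100 FPKM in replicate 1 and 28.3 in replicate 4.

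Below these, the order of Neurog2, Neurod1, Insm1 and Bcl11b changed with time. At T0, Bcl11b (0.587 ± 0.0372 FPKM, SD, n = 3) and Insm1 (0.699 ± 0.234) overlapped, and both lay above Neurod1 (0.295 ± 0.155). Neurog2, listed at 0.152, 0.0922 and 0 FPKM, overlapped with Neurod1 and lay below the others. At T1, Neurog2 (4.51 ± 1.65, n = 3) overlapped with Bcl11b (2.23 ± 0.41) and exceeded Insm1 (1.13 ± 0.163), and Neurod1 was the lowest of these (0.26 ± 0.00958). At T2, Neurog2 was above Bcl11b in every library, at 5.85, 4.91, 7.72 and 3.6 FPKM against 2.6, 2.69, 2.33 and 1.52. At T3, Neurod1 had 1.3 and 1.66 FPKM and overlapped with Insm1 (1.33 and 1.05), Bcl11b (2.33 and 1.39) and Neurog2 (2.31 and 0.845). The FPKM entry of Neurod1 spans a wider region than the gene, from 79095582 to 79301264 on chromosome 2, and includes Cerkl. St18 reached at most 0.64 FPKM, Myt1l 0.0437 and Bcl11a 0.0334.

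**Figure D3:**
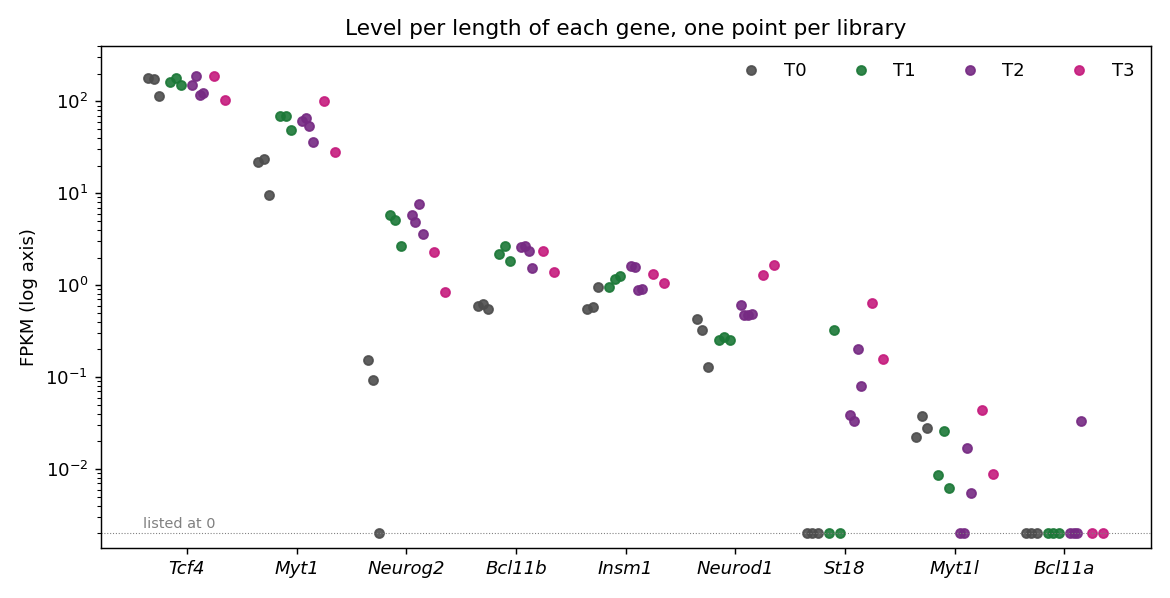
FPKM of each of the 9 factors (log y axis), with 1 point per library coloured by time point and values listed at 0 placed on the dotted line. Tcf4 (103 to 187 FPKM) and Myt1 lie above all others, and Neurog2 moves from at most 0.152 FPKM at T0 to 3.6 FPKM or more at T2, above Bcl11b.

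The likeness of profiles was described by Pearson's r of log2 CPM over the 12 libraries, which share time points and T0 replicate 3, among 11595 other genes with sufficient level. Among the members, Bcl11b and Neurog2 were most alike (r = 0.95), followed by Myt1 and Bcl11b (0.92) and Myt1 and Neurog2 (0.89). Neurod1 was least like the others, with r from 0.21 with Neurog2 to 0.46 with Myt1. Of all genes, the nearest to Neurog2 were Olfm3, H2-M5 and Scmh1 (r = 0.99, 0.99 and 0.98). Olfm3 had means of 0.356, 6.66, 10.5 and 4.68 CPM at T0, T1, T2 and T3. Nearest to Neurod1 were Eda2r, Dlgap1 and Nfasc (0.97, 0.94 and 0.93). Nfasc, for the axonal adhesion protein neurofascin, had means of 0.338, 1.68, 10.9 and 126 CPM.

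For Myt1 the nearest were Mcf2l, Caskin1 and Kdm4b (each r = 0.99), and for Bcl11b they were Ptprd, Nol4 and Map3k9 (each r = 0.99). Ptprd, a receptor phosphatase of synapses, went from a mean of 12.3 CPM at T0 to 59.4, 78 and 64.2 CPM, close in course to Bcl11b. For Insm1 they were Fam190a, Tnfrsf25 and Rims3 (r = 0.90, 0.89 and 0.89). For Tcf4 they were the chromatin genes Tet2, Mll3 and Chd6 (r = 0.98, 0.98 and 0.97). Tet2 had a mean of 89.6 CPM at T0 and of 132 to 136 CPM later.

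The related genes were then examined as lists, which hold some of the 9 factors where these belong. For every list, markers included, the shares of all genes called against T0 serve as background. They were 15.1% higher and 16.8% lower at T1, 21.4% and 21.8% at T2, and 3.31% and 1.41% at T3. Without T0 replicate 3, 25.2%, 26.7% and 9.94% were called higher. The share called lower in that fit was not computed, so counts of genes lower there have no background. Of the 3 E proteins, Tcf12 was called higher at T1 (0.54 on the log2 scale, edgeR, adjusted p = 0.033) and Tcf3 lower at T1 (-0.66, 0.015) and T2 (-0.71, 0.0029), while Tcf4 was not called. The log2 fold changes without T0 replicate 3 were 0.43 for Tcf12 at T1 and -0.51 and -0.56 for Tcf3, all called. By mean level, Tcf3 had 229 CPM at T0 and 145, 138 and 144 CPM later, and Tcf12 had 782, 1143, 1002 and 785 CPM. At T3 no E protein was called by edgeR or DESeq2, and 1 was lower at an unadjusted p below 0.05.

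Among the 16 neurogenic bHLH factors, 3 were tested at T1 and T2, Neurog2 and Neurod1 among them. At T1 and T2, 1 of the 3 rose, Neurog2. At T3, 0 of 4 were called by edgeR with all libraries (2 higher at an unadjusted p below 0.05, 2 higher by DESeq2), and 2 were called higher without T0 replicate 3. Neurod4 is left out of these counts at T3 for the reason given below. Most of the list was near 0, and Neurog1, Neurog3, Neurod2, Neurod6 and Atoh1 had at most 4 counts in any library. Neurod4, named after its values were seen, had 55 and 68 counts in T0 replicates 1 and 2, 0 in T0 replicate 3, and at most 2 in every later library. It failed the filter at T1 and T2 with all libraries, and elsewhere passed it only through the T0 libraries where it is high, so its calls are not given as a result. Nhlh1, also named after its values were seen, had the same split, with 10, 10 and 0 counts at T0 and at most 1 later.

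Of the 11 inhibitors of bHLH factors, 8 were tested at T1, where Hes5 and Id3 fell and Hes3 rose. Hes5, a Notch target that represses proneural genes, was at 48.7 CPM on average at T0 and at 13.7 and 11.8 CPM at T2 and T3, a log2 fold change of -1.75 at T1 (edgeR, adjusted p = 0.012) and -1.81 at T2 (0.0019). Id3, which sequesters E proteins, changed by -0.96 (adjusted p = 0.0085) and -0.91 (0.0013). Hes3 went from 3.13 CPM to 11.4 and 10.5 CPM and back to 3.47 CPM at T3, called higher at T1 (1.87, adjusted p = 0.044) and T2 (1.76, 0.021) and lower from T2 to T3 (-1.58, 0.046). Its course had the peak at T1 and T2 that Neurog2 also had. At T3 0 of 8 were called against T0 by edgeR, with 4 lower at an unadjusted p below 0.05 and 3 called lower by DESeq2. With T0 replicate 3 left out, 5 were called lower and 2 higher at T1, 4 lower and 1 higher at T2, and 5 lower at T3. In that fit Hes5 was at -2.02 and -2.10 on the log2 scale at T1 and T2, Id3 at -1.08 and -1.03 and Hes3 at 1.40 and 1.29, each called. The median log2 fold change of the list was -0.04, 0.08 and -0.80 at T1, T2 and T3, where that of all genes was -0.0082, 0.0023 and -0.015.

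Of the 16 genes known downstream of proneural factors, 11 were tested at T1, where 3 rose and 2 fell. The Notch ligand Dll1 rose by 1.35 on the log2 scale at T1 (edgeR, adjusted p = 0.0029) and 0.97 at T2 (0.0027), and the cell cycle and stress gene Gadd45g by 1.49 (0.02) and 1.56 (0.0058). Dcx, a microtubule protein of migrating neurons, rose by 5.29 at T1 (adjusted p = 0.00071), by 6.06 at T2 (8.2e-05) and by 6.22 at T3 (0.018), from a mean of 5.57 CPM at T0 to 218, 368 and 411 CPM. Dcx also rose from T1 to T2 (0.76, adjusted p = 0.036), the 1 gene of the list called there. Other genes of the list went down: Hes6 changed by -0.49 at T1 (0.033) and at T2 (0.0037), and Elavl4 by -1.40 at T1 (0.043). At T2, 4 genes rose, Insm1 among them, and Hes6 fell. Dll3, another Notch ligand, was at 8.97, 11.5, 10.7 and 31.3 CPM, and rose at T3 against T0 (1.82, adjusted p = 0.039) and against T2 (1.56, 0.044), late like Neurod1. At T3, 2 of 12 rose, Dll3 and Dcx, and 4 without T0 replicate 3. Without that library Cbfa2t2 (-0.27, edgeR, adjusted p = 0.041) fell at T2 beside Hes6. Neurod4 is not counted in that fit, since it passed the filter only through the T0 libraries where it is high. The named calls remained in that fit, with log2 fold changes of 1.17 and 0.78 for Dll1, 1.16 and 1.23 for Gadd45g, 4.87, 5.64 and 5.80 for Dcx, -0.52 and -0.52 for Hes6 and 1.64 for Dll3 at T3. Elavl4 at T1 was then at -0.86 (edgeR, adjusted p = 0.025). The median of the list was 0.35, 0.31 and 0.10 at T1, T2 and T3.

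REST is a repressor of neuronal genes, and Insm1 and the Myt1 family work with related corepressors, so that 14 genes of REST and its corepressors were examined. Rest itself was at 40, 39.2, 31.5 and 31.6 CPM and was not called against T0 (adjusted p = 0.89, 0.23 and 0.39). At T1, 4 of 14 fell (Rcor1, Hdac2, Sin3a and Hmg20b) and Rcor3 rose, where 16.8% of all genes were called lower and 15.1% higher. At T2, 5 of 14 fell, the same 4 and Rcor2, where 21.8% of all genes were called lower. None of the 14 rose at T2 by edgeR, DESeq2 or at an unadjusted p below 0.05. Without T0 replicate 3, 3 rose at T1 and 1 at T2, and 2 fell at T3. Rcor2, a corepressor of progenitors, was at 146, 117, 77.1 and 84.7 CPM, with a log2 fold change against T0 of -0.91 at T2 (edgeR, adjusted p = 0.00037) and -0.77 at T3 (0.045). It also fell from T1 to T2 (-0.60, adjusted p = 0.047) and was the 1 gene of the list called at that step and at T3. The call from T1 to T2 was lost in one fit of all 12 libraries and with libraries numbered 1 and 2 only, and at T3 DESeq2 called 3 genes of the list lower and one fit of all libraries 5. Rcor2 without T0 replicate 3 was at -0.95 at T2 and -0.82 at T3, both called. Kdm1a, the demethylase bound by Insm1, was at 206 to 232 CPM on average and was not called. The median log2 fold change of the list was -0.08, -0.26 and -0.24.

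Bcl11b recruits the NuRD complex, and 12 of its subunit genes were examined as a list. Its deacetylase genes Hdac1 and Hdac2 are not among these 12 and were counted with the REST corepressors. The helicase genes Chd3 and Chd5 rose, several others fell, and Mta1 and Gatad2b were not called against T0. Chd3 had a mean of 21.8 CPM at T0 and of 136, 143 and 143 CPM later, a log2 fold change of 2.63 at T1 (edgeR, adjusted p = 0.0018), 2.73 at T2 (0.00029) and 2.73 at T3 (0.03). Chd5 rose by 1.51 (0.0078) and 1.99 (0.0014) at T1 and T2. Their paralog Chd4 was at 1037, 872, 730 and 769 CPM and fell at T2 (-0.49, adjusted p = 0.0092). At T1, 2 of 12 rose and 2 fell, Mta3 and Rbbp7, where 15.1% of all genes were called higher and 16.8% lower. At T2, 2 rose and 8 fell, from -1.06 for Rbbp7 to -0.34 for Mbd2, where 21.8% of all genes were called lower. At T3 Chd3 alone was called. With T0 replicate 3 left out, 5 subunits fell at T1 and both Chd3 and Chd5 rose at T3. Rbbp7 was at 268 CPM in that library and at 137 and 134 CPM in the other T0 libraries, and without it the fall at T2 was -0.65 for Rbbp7 and -0.23 for Mbd2. The log2 fold changes of Chd3 were then 2.34, 2.43 and 2.44, those of Chd5 1.40 and 1.87 and that of Chd4 at T2 -0.54, all called. The medians were -0.32, -0.43 and -0.40.

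Of 13 paralogs of the members, which include Myt1 and Bcl11b, 4 were tested at T1 and T2 and these are the genes given above. Insm2 had at most 2 counts in any library. At T1, 3 paralogs rose and 1 fell, at T2 2 rose and 1 fell, and at T3 1 rose, Bcl11b. Without T0 replicate 3, 2 rose at T3, and Tcf3 fell at T1 and T2 and was not called at T3 (edgeR, adjusted p = 0.097). Neurod4, which passed the filter there only through the T0 libraries where it is high, is not counted.

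The markers of cell types show what else moved in these libraries. Of 14 neuron markers in the tables, 8 were tested at T1 (5 higher, 1 lower), 10 at T2 (8 higher) and 11 at T3 (4 higher, and 7 without T0 replicate 3). The neuronal tubulin Tubb3 went from 25.6 CPM to 155, 135 and 133 CPM, and Gad1 from 2.68 to 36.1, 50.3 and 36.3 CPM, higher by 4.25 on the log2 scale at T2 (edgeR, adjusted p = 8.9e-05). All 6 tested of 11 neuroendocrine and endocrine markers rose at T1 and at T2, and 5 of 6 at T3, with Scg2 at 7.13 (adjusted p = 0.00038) and Pcsk2 at 6.18 (7.6e-05) at T2. Gad1 without T0 replicate 3 was higher by 3.90, Scg2 by 6.60 and Pcsk2 by 6.17 at T2. The endocrine factors Nkx2-2 and Isl1 had at most 1 count and Pax4 at most 5.

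Of the 8 progenitor markers, the cell cycle genes Mki67, Top2a and Ccnd1 fell at T1, and Vim also fell at T2. Mki67 was at 679, 56.6, 77.4 and 254 CPM on average, higher at T3 than at T1 and T2, and edgeR did not call its rise from T2 to T3. Ccnd1 was the 1 gene of the list called higher from T2 to T3 (1.48, edgeR, adjusted p = 0.039), beside the rise of Neurod1. At that step 3 genes of the list were called higher by DESeq2 and 0 in one fit of all 12 libraries. Nes, Sox2, Pax6 and Fabp7 were not called in any of the 5 comparisons with all libraries. With T0 replicate 3 left out, the list had 2 genes higher and 4 lower at T1, 1 higher and 4 lower at T2, and 1 higher and 2 lower at T3. In that fit Nes was called higher at T1 (0.59, edgeR, adjusted p = 0.0012). Fabp7 was called higher at T1, T2 and T3 (1.37, 1.23 and 1.24, adjusted p = 8.3e-05, 0.00043 and 0.013). Of 14 oligodendrocyte lineage markers, 1 rose at T1, 4 at T2 (Olig1, Pdgfra, Gpr17 and Mog) and none was called at T3 by edgeR (3 higher and 2 lower at an unadjusted p below 0.05, 1 higher and 1 lower by DESeq2). Their summed level was 3887 to 4070 CPM at T0 and 6819 to 7030 CPM at T3. Olig1 and Olig2 were at 3801 and 1515 CPM on average at T3. Of 8 astrocyte markers, 0 were called by edgeR at T1, 2 fell at T2 and 0 were called at T3, with 1 at T1 and 3 at T3 lower both by DESeq2 and at an unadjusted p below 0.05. When T0 replicate 3 was left out, 6 oligodendrocyte markers were higher and 2 lower at T1 and at T2, with 4 higher and 2 lower at T3, and 4, 4 and 6 astrocyte markers were lower at T1, T2 and T3, with 1 higher at T2 and at T3. All 8 microglia markers had at most 3 counts in every library, and none of the endothelial markers, 2 of 5 at that floor, was called by edgeR or DESeq2 (1 higher at T2 at an unadjusted p below 0.05, and 1 called higher at T1 and at T2 without T0 replicate 3). The part of these cell types in the changes of the 9 factors was not tested.

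**Figure D4:**
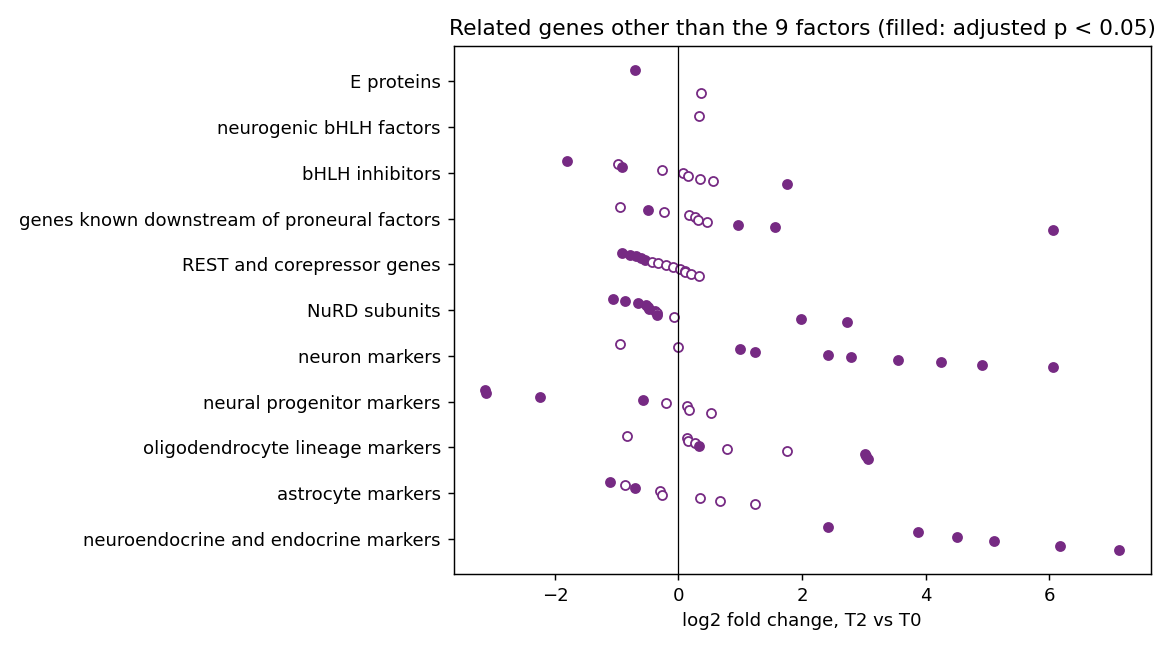
Log2 fold change at T2 against T0 (x axis) of the tested genes of each list other than the 9 factors, from edgeR, with filled points for an adjusted p below 0.05. The neuroendocrine and neuron markers reach 7.13 and 6.06, the NuRD subunits split into 2 that rose and 8 that fell, and no REST or corepressor gene is called higher.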

How the data were processed

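PolyA RNA of ANS cells was sequenced in 12 libraries (T0, T1, T2 and T3, grouped by the differentiation time in the labels). Per the labels and methods, the authors made the libraries with the TruSeq kit, sequenced on a HiScanSQ, called bases with CASAVA 1.8 and aligned reads to mm9 with TopHat2 2.0.6 and Bowtie 0.12.7.0. HTSeq 0.6.0 and DESeq2 1.0.0 are also named in the submitters' processing notes. The deposited counts are raw reads per gene, and entries naming no gene, of which reads on no feature were 13.3% to 24.1% of uniquely aligned reads, were left out. The authors also deposited FPKM values per gene and library, whose tool is not given in the sources used here, and 0 columns belonged to other samples.

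Depth was 8910724 to 16631614 counts per library (counting error is smallest for Tcf4 and Myt1 and large for genes under 100 counts). Counts were normalized by TMM, filtered by filterByExpr and tested with edgeR 4.0.16 (R 4.3.3) on the libraries of the compared groups, and standard errors are the log2 fold change over the root of F. Alternatives were no filter, DESeq2 size factors, DESeq2 1.42.0, one fit of all 12 libraries, each library left out, limma 3.58.1 on log2(FPKM + 0.1) or log2(FPKM + 1) with a minimum of 0.5 FPKM or none, libraries numbered 1 and 2 only, and the replicate number as a block. The fits were tested on simulated counts. Between T1 and T2, libraries of the same number correlated by 0.28, 0.42 and 0.21 (deviations from group means). T1 replicate 3 correlated more with T2 replicate 4 (0.45), so the pairing by number was only partial. The block changed no call of a member from T1 to T2. Replicates differed beyond sampling noise (chi-square per gene 3.28 or more), so none was counted as a repeat.

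The 9 members, the lists (E proteins, neurogenic bHLH factors, bHLH inhibitors, genes downstream of proneural factors, REST and corepressors, NuRD subunits, paralogs, and markers of 7 cell types) and the tests were chosen with earlier results of these data known. Named were all members, the called genes of each list (where over 4, those with the largest change), and the 3 genes most alike in profile, on log2(CPM + 0.5), to each member whose mean log2 CPM reached 1. Alignments and 3′ end usage were not analysed here. Results on some list genes are not reported here.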

Additional observations from a re-analysis of the deposited data

How the results depend on the processing

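Over the alternatives, 262 of 316 single-gene results kept direction and side of the threshold, 27 lost a call, 20 gained one and 7 turned sign. At T1 the number of members called higher was 2 to 4 with each library left out in turn, at T2 it was 3 to 4, and from T1 to T2 it was 0 throughout. At T3 it was 1 with all libraries, 0 to 5 with each library left out, 4 with no filter or with DESeq2, 5 in one fit of all 12 libraries, and 0 with limma on log2(FPKM + 0.1), with or without a filter, or on log2(FPKM + 1). From T2 to T3 the number called higher was 1, and 0 to 1 with each library left out, 0 in one fit of all 12 libraries, with each limma setting and with the replicate block. The number called lower there was 0, and 1 with no filter or DESeq2, and 0 to 1 with libraries left out. Signs turned, none of them called, for Neurod1 at T1 without T0 replicate 1 (-0.46 to 0.25 with each library left out) and for Tcf4 under the 3 limma settings at T2 (-0.09) and T3 (-0.13). The cause was not tested.

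With the replicate block, 3 members were called higher at T1, 3 at T2 and 0 from T1 to T2, and the changed calls were Insm1 at T2 (1.05, edgeR, adjusted p = 0.12) and Neurod1 from T2 to T3 (1.37, adjusted p = 0.22). Same-numbered T0 libraries correlated by -0.01, 0.15 and 0.09 with T1 and by -0.10, 0.02 and -0.16 with T2, so these numbers do not pair them. T3 and T0 share 1 number and no block could be fitted. With libraries numbered 1 and 2 only, Insm1 was called at T1 (0.88, adjusted p = 0.0052). Depth limits Neurog2 at T0, Neurod1, St18, Myt1l and Bcl11a, each with few counts.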
